A study of Mus musculus with 2 samples.

Results

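The miR-23/27/24 twin clusters are a pair of short runs of miRNA genes, one on chromosome 8 and one on chromosome 13, each of which carries a Mir23, a Mir27 and a Mir24 hairpin. They were described here in the left cerebral cortex of adult female 5xFAD/CAST mice aged 8 to 10 months. The members were chosen by name and comprise 6 of the 2202 miRNA genes in the deposited tables, with Mir23a, Mir27a and Mir24-2 on chromosome 8 and Mir23b, Mir27b and Mir24-1 on chromosome 13. 5xFAD is a transgenic mouse model of Alzheimer's disease, with transgenes driven by the neuronal Thy1 promoter, and its brain forms amyloid plaques. The labels do not expand CAST, and they state neither the transgene status of the individual tissue samples nor a second genotype, age or treatment. The study holds 2 microRNA-seq libraries of RNA under 30 nt, numbered as biological replicates 1 and 2 of 1 group. They cite 1 donor entry but separate tissue samples, and whether the tissue came from separate animals is not stated. The difference between the libraries may therefore be technical, in part or in full, and no p-value here holds an estimate of the spread between animals.

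An miRNA hairpin is cut from a longer transcript by Drosha and then by Dicer into a duplex of a 5p and a 3p product, and an Argonaute protein keeps one of them and uses its seed, bases 2 to 8, to find target mRNAs. The miR-23/27/24 clusters are thought to derive from a duplication, and their products are known for roles in vascular growth, lipid metabolism, lymphocyte differentiation and cell survival. In brain, miR-23 is used as an astroglial miRNA, and the clusters are also expressed in endothelial cells. The hairpins of a cluster can be cut from one shared transcript.

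The mature products show which reads can be told apart between the twins. They are given 5′ to 3′ as listed by RefSeq on GRCm38.p6, with the seed in capitals. All 6 hairpins matched a RefSeq entry by symbol, with 11 product entries among them. The 3p products come first, and miR-23b-3p is named only.

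miR-23a-3p: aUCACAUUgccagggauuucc

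miR-27a-3p: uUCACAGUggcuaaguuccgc

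miR-27b-3p: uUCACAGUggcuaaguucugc

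miR-24-3p: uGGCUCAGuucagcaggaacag

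The 5p products are shown because their seeds differ between most twins.

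miR-23a-5p: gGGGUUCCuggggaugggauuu

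miR-23b-5p: gGGUUCCUggcaugcugauuu

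miR-27a-5p: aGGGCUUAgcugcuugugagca

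miR-27b-5p: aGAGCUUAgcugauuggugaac

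miR-24-1-5p: gUGCCUACugagcugauaucagu

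miR-24-2-5p: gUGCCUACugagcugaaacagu

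miR-27a-3p and miR-27b-3p share the seed UCACAGU and differ by 1 substitution, C19U, counted from 1 at the 5′ end of miR-27a-3p. miR-24-3p is listed at both loci with the same sequence, so no read of it can be assigned to either cluster. Its seed GGCUCAG also occurs in products of Mir6413, Mir6410, Mir6369 and Mir5124b, and each of these genes had 0 counts in both libraries. The 5p seeds of the Mir23 and Mir27 twins differ, whereas both Mir24 5p products carry UGCCUAC.

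In the 3p products and in the Mir24 5p products, the bases that assign a read to one twin lie towards the 3′ end. In the next set, lower case marks the stretch from the 5′ end that is also in the twin hairpin, and capitals mark the bases beyond it.

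miR-23a-3p: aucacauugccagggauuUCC

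miR-27a-3p: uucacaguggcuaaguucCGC

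miR-27b-3p: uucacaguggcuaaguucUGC

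miR-24-1-5p: gugccuacugagcugaUAUCAGU

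miR-24-2-5p: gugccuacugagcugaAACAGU

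miR-24-3p: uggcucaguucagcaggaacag

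The first 18 bases of miR-23a-3p are also in the Mir23b hairpin, and the first 18 bases of miR-27a-3p are in the Mir27b hairpin, so a read from the 5′ end has to reach base 19 to be told apart. The Mir24 5p products share 16 bases and part at base 17. Over the whole hairpin, identity between twins was 72.2% for Mir23, 59.6% for Mir27 and 54.5% for Mir24 in a global alignment. The tables set reads that map to several places aside, in a row of their own that held 40.4% (replicate 1) and 39.4% (replicate 2) of the total. How many of those reads came from these hairpins was not analysed here, so all levels below are of assigned reads and may fall short of the products' true levels. This holds most for Mir24.

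The Mir24-2 hairpin (chr8:84208815-84208921, + strand) illustrates this, with both products in capitals. Its first capital stretch is miR-24-2-5p and its second is miR-24-3p.

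Mir24-2: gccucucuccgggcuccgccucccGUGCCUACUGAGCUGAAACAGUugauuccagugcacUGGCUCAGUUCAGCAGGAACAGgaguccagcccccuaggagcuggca

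The clusters differ in their setting. On mm10 with GENCODE M21, the chromosome 8 cluster spans 404 bases on the + strand, with Mir23a (ENSMUSG00000065611.1; 84208518 to 84208592), Mir27a (ENSMUSG00000065444.1; 84208672 to 84208758) and Mir24-2 (ENSMUSG00000065541.1; 84208815 to 84208921). Its hairpins are 79 and 56 bases apart. Mir23a and Mir27a overlap no annotated transcript other than their own, and Mir24-2 overlaps the first exon of the lincRNA Gm26532 by 2 bases. The chromosome 13 cluster spans 792 bases on the + strand, with Mir23b (ENSMUSG00000065599.2; 63300484 to 63300557), Mir27b (ENSMUSG00000065475.2; 63300712 to 63300784) and Mir24-1 (ENSMUSG00000105904.1; 63301208 to 63301275), at distances of 154 and 423 bases. All 3 lie within 2010111I01Rik (Aopep), which encodes an aminopeptidase and is the annotated host gene. Mir23b overlapped no exon of this host. Mir27b lies within an exon of 1 host transcript of the nonsense-mediated decay class and is intronic in the others that run over it. Mir24-1 overlaps exons of 4 host transcripts. A transcript of Fancc runs over the cluster on the opposite strand.

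**Figure D1:**
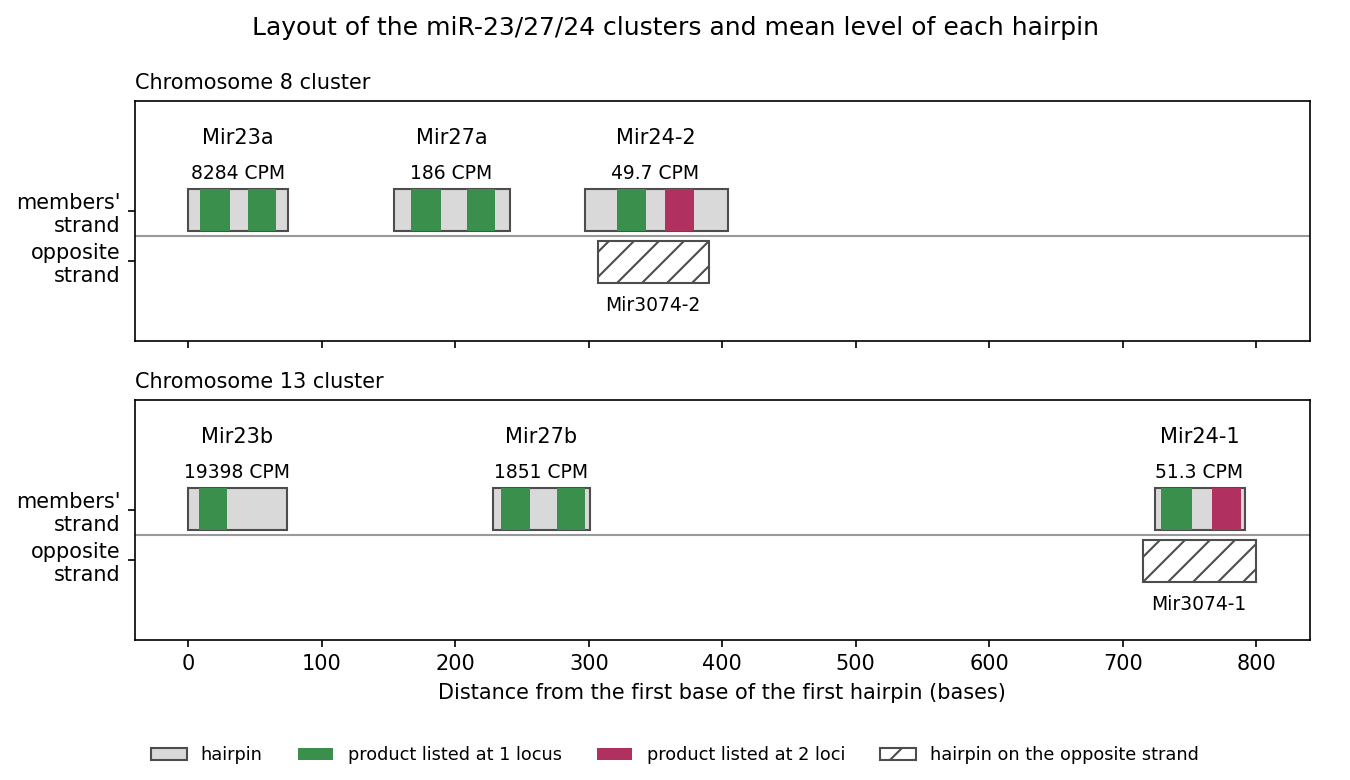
Layout of the chromosome 8 (top) and chromosome 13 (bottom) clusters. The x axis is the distance in bases from the first base of Mir23a or Mir23b, grey boxes are hairpins, green boxes are products that RefSeq lists at 1 locus, red boxes are the product listed at 2 loci and hatched boxes are hairpins on the opposite strand, with the mean CPM of each member above its box. The chromosome 13 cluster is the longer one (792 against 404 bases), and each Mir24 hairpin faces a Mir3074 hairpin.

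Levels are given in CPM, that is, reads on the hairpin's own strand for every 1000000 reads on miRNA genes. Those reads numbered 4226300 in replicate 1 and 5162369 in replicate 2. The RNA was under 30 nt, shorter than any of the 6 hairpins, so CPM was not divided by hairpin length. CPM counts reads and not molecules. All 6 members reached 10 CPM in both libraries, as did 14% of all miRNA genes. The 6 hairpins took 3.03% of the counts in replicate 1 and 2.94% in replicate 2. The chromosome 13 cluster took 2.32% and 1.94% (2.13% ± 0.266, SD, n = 2). The chromosome 8 cluster took 0.710% and 0.994% (0.852% ± 0.200). In both libraries the chromosome 13 cluster held the larger share.

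Mir23b, used as an astroglial miRNA, had 20609 CPM in replicate 1 and 18187 CPM in replicate 2 (19398 ± 1713, SD, n = 2). It ranked 10 and 11 among all miRNA genes. Mir23a, its twin on chromosome 8, had 6783 and 9784 CPM (8284 ± 2122) and ranked 30 and 21. The Mir23 hairpins were therefore among the 30 most abundant genes in each library, and Mir23b lay above Mir23a in both.

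Mir27b had 2495 CPM in replicate 1 and 1208 CPM in replicate 2 (1851 ± 910, SD, n = 2). Mir27a had 258 and 115 CPM (186 ± 101). miR-27 is known as a repressor of adipogenesis and lipid genes and as a regulator of endothelial sprouting. Both Mir27 hairpins were higher in replicate 1, and the libraries' values of Mir27b lay above those of Mir27a without overlap.

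The Mir24 hairpins had the lowest levels. miR-24 is known to act in erythroid and cell cycle control and in endothelial apoptosis. Mir24-1 had 79.0 CPM in replicate 1 (334 reads; exact Poisson 95% interval 70.8 to 88.0 CPM) and 23.6 CPM in replicate 2 (122 reads; 19.6 to 28.2 CPM). Mir24-2 had 62.0 CPM (262 reads; 54.7 to 70.0 CPM) and 37.4 CPM (193 reads; 32.3 to 43.0 CPM). Their means were 51.3 ± 39.2 and 49.7 ± 17.4 CPM (SD, n = 2), and their ranges overlapped. The intervals cover counting error only. These values leave out every read of miR-24-3p that was set aside for matching both loci, so they do not show that miR-24 was scarce.

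In order of mean level of assigned reads, the members were Mir23b, Mir23a, Mir27b, Mir27a, Mir24-1 and Mir24-2. Each neighbouring pair differed by more than the larger SD of the pair except Mir24-1 and Mir24-2, which differed by 1.64 CPM against an SD of 39.2 CPM. No test of this order was made, since each pair of levels comes from the same 2 libraries. By Euclidean distance of log2(CPM + 1) over the 2 libraries, the gene nearest in level was Mir652 for Mir23b (distance 0.56), Mir382 for Mir23a (0.34), Mir31 for Mir27b (0.32), Mir101a for Mir27a (0.15), Gm49347 for Mir24-1 (0.59) and Mir211 for Mir24-2 (0.08).

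**Figure D2:**
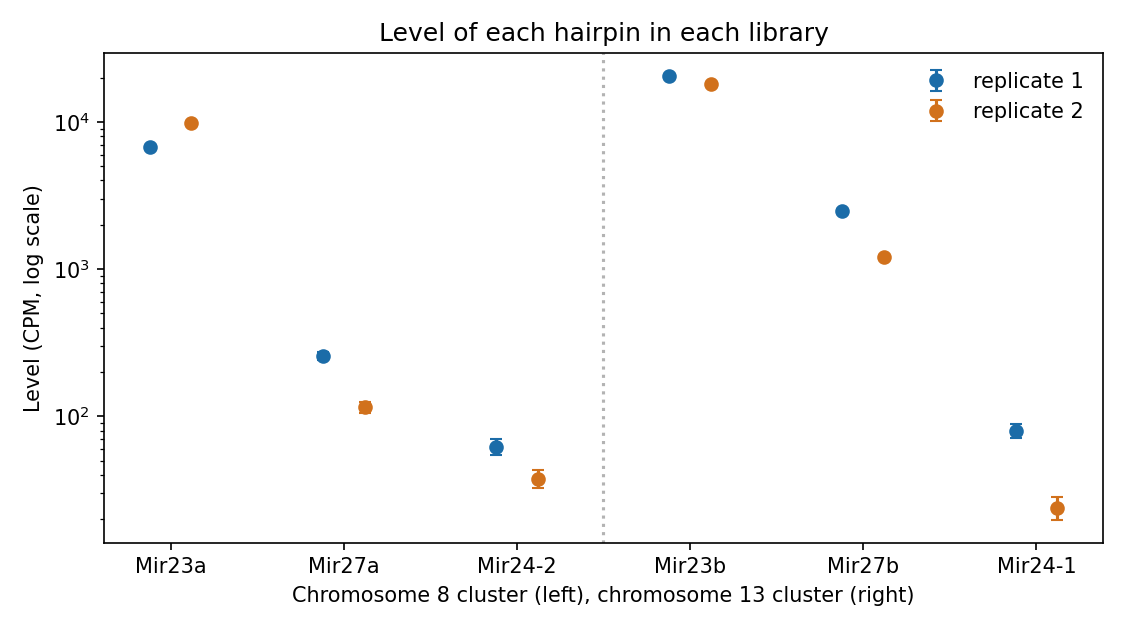
Level of each hairpin in CPM (log scale) in replicate 1 (blue) and replicate 2 (orange), with exact Poisson 95% intervals that are mostly smaller than the points. Levels of assigned reads step down from Mir23 to Mir27 to Mir24 in both clusters, from 20609 to 79.0 CPM on chromosome 13 in replicate 1. The Mir24 values leave out reads set aside for matching both loci.

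The level of assigned reads thus stepped down by hairpin type in both clusters. The Mir24 counts leave out reads set aside for matching both loci. The step down to Mir24 and the shares below therefore hold for assigned reads only. Mir23a made up 95.5% of the chromosome 8 counts in replicate 1 and 98.5% in replicate 2, and Mir23b made up 88.9% and 93.7% of the chromosome 13 counts. Mir27a took 3.63% and 1.16% of its cluster, and Mir27b took 10.8% and 6.22% of its own. Mir24-2 took 0.873% and 0.376%, and Mir24-1 took 0.341% and 0.122%. Mir27 therefore held a larger part of the chromosome 13 cluster than of the chromosome 8 cluster in each library.

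As counts, Mir23a exceeded Mir27a by 26.3 times in replicate 1 (exact binomial 95% interval 24.8 to 28.0) and by 85.2 times in replicate 2 (78.6 to 92.5). On chromosome 13, Mir23b exceeded Mir27b by 8.26 times (8.10 to 8.43) and 15.1 times (14.7 to 15.4). The Mir23 to Mir27 ratio was thus higher in replicate 2 for both clusters, by 3.24 times on chromosome 8 and 1.82 times on chromosome 13. Taken over both clusters, it was 9.95 in replicate 1 and 21.1 in replicate 2.

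Unequal hairpins were also found in several other duplicated clusters. Mir29a made up 99.5% ± 0.0845 of its cluster with Mir29b-1, and Mir29c made up 94.2% ± 0.0760 of its cluster with Mir29b-2 (SD, n = 2). Mir181b-2 made up 99.05% ± 0.162 of its cluster with Mir181a-2, and Mir181a-1 made up 95.7% ± 0.839 of its cluster with Mir181b-1. The leading hairpin held less in the clusters of Mir15b with Mir16-2 (69.5% ± 2.67) and Mir181d with Mir181c (56.5% ± 8.13). In the cluster of Mir15a with Mir16-1, Mir15a led with 65.8% in replicate 1, and Mir16-1 held 50.5% in replicate 2, so the pair was close to equal there. No test was made of these differences, and twins in these families can lose reads to several places too.

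Between twins, the ratio within a library needs no scaling. Mir27b to Mir27a was 9.68 in replicate 1 (exact binomial 95% interval 9.09 to 10.3) and 10.5 in replicate 2 (9.66 to 11.5), so the intervals overlapped although both genes were about 2-fold apart between libraries. Mir23b to Mir23a was 3.04 (2.998 to 3.08) in replicate 1 and 1.86 (1.84 to 1.88) in replicate 2. Mir24-1 to Mir24-2 was 1.27 (1.08 to 1.504) and 0.632 (0.4997 to 0.797), which lie on opposite sides of 1. Its mean was 0.953 ± 0.454 (SD, n = 2), and 1.5003 when counts were divided by hairpin length. The RNA was shorter than any of these hairpins, so the undivided ratio is the main one. The whole chromosome 13 cluster exceeded the chromosome 8 cluster by 3.26 times in replicate 1 and 1.95 times in replicate 2 (2.61 ± 0.926, SD, n = 2).

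**Figure D3:**
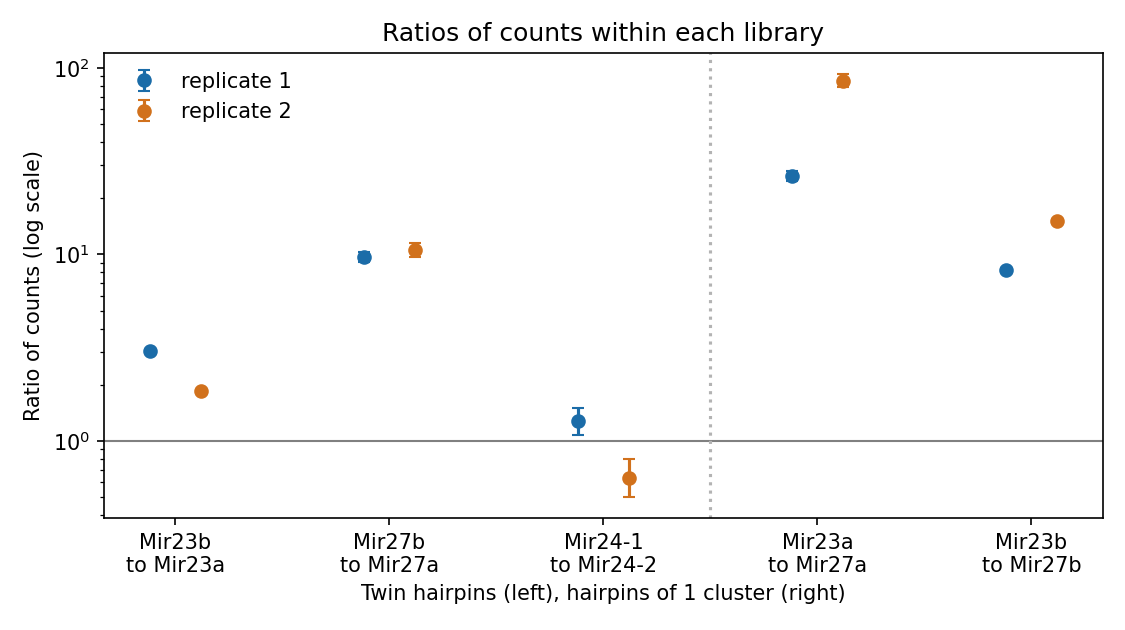
Ratios of counts within each library (log scale) for the twin hairpins (left of the dotted line) and for Mir23 to Mir27 of each cluster (right), with exact binomial 95% intervals that cover counting error only. The Mir27 twins keep a ratio of 9.68 and 10.5, while the Mir23 twins go from 3.04 in replicate 1 to 1.86 in replicate 2.

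The labels leave room for 1 comparison, that of the libraries with each other, which says nothing of conditions. A two-sided exact binomial test was run on the 546 genes whose counts summed to 10 or more, with library sizes scaled by TMM and p-values adjusted by Benjamini-Hochberg. Of the 6 members, 5 were called higher in replicate 1, where the background was 34.2% of the genes tested. Mir23a was called higher in replicate 2, where the background was 24.5%. The median log2 ratio of the members was -0.92, beside -0.06 over all 546 genes. At this depth the test calls small differences, with calls for 89 of 93 genes whose mean was 1000 CPM or more.

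By size, Mir24-1 was 3.41-fold higher in replicate 1 (log2 ratio -1.77; adjusted p = 1.05e-34, exact binomial test). Mir27a was 2.29-fold higher in replicate 1 (log2 ratio -1.20; adjusted p = 1.03e-61), and Mir27b 2.11-fold (log2 ratio -1.08; adjusted p under 1e-300). Mir24-2 was 1.69-fold higher in replicate 1 (log2 ratio -0.76; adjusted p = 6.69e-08). Mir23b was 1.16-fold higher in replicate 1 (log2 ratio -0.21; adjusted p = 1.53e-211). Mir23a was 1.41-fold higher in replicate 2 (log2 ratio 0.50; adjusted p under 1e-300). The exact binomial test allows for counting error alone. An edgeR exact test was also run with a biological coefficient of variation (BCV) fixed at 0.1, a value assumed and not estimated from these libraries. It kept Mir24-1, Mir27a, Mir27b and Mir24-2 and lost Mir23a (adjusted p = 0.0517) and Mir23b (adjusted p = 0.479). Over all 546 genes it made 101 calls towards replicate 1 and 56 towards replicate 2. Whether the kept members would pass at a larger BCV was not tested.

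Set beside other tested genes within 3-fold of the same mean CPM, the folds of Mir24-1 and the Mir27 hairpins lay towards the upper end. A fold at least as large as that of Mir24-1 was found in 6 of 108 such genes, as that of Mir27b in 7 of 72 and as that of Mir27a in 13 of 108. For Mir24-2 these were 30 of 106, for Mir23a 15 of 45 and for Mir23b 16 of 24. The Mir23 folds were thus common among genes of like level.

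**Figure D4:**
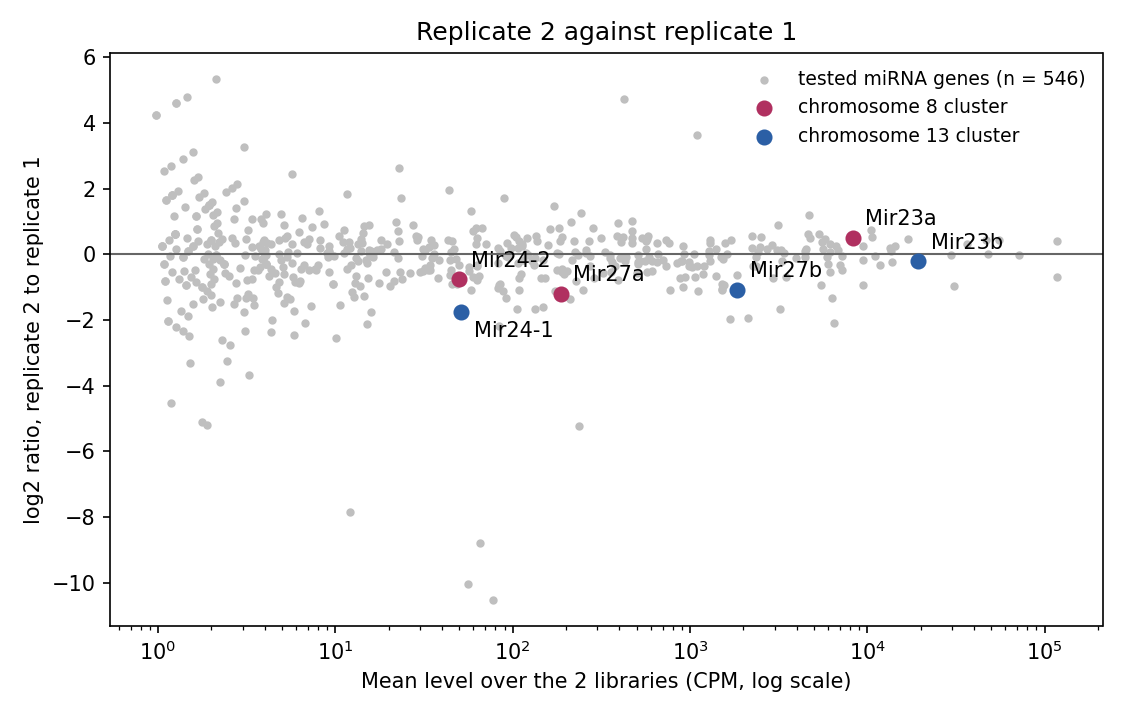
log2 ratio of replicate 2 to replicate 1 (TMM-scaled, 0.5 counts added) against mean CPM (log scale) for 546 tested miRNA genes (grey), with the chromosome 8 (red) and chromosome 13 (blue) members named. Mir23a lies above 0 at 0.50, and the other 5 members lie below, from -0.21 to -1.77.

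Marker lists of cell types also differed between the libraries, and their part in the members' differences was not tested. How specific the listed genes are to their cell type was not tested either. In bulk tissue, fewer cells of a type and less RNA per cell cannot be told apart. The endothelium and mural list of 9 genes took 2.10% of the counts in replicate 1 and 2.74% in replicate 2, and 7 of its genes were tested. Calls towards replicate 2 numbered 4, and calls towards replicate 1 numbered 2. Its most abundant gene, Mir126a, a defining endothelial miRNA, had 7756 and 13122 CPM. All 8 genes of the astroglia list, which leaves out Mir23a and Mir23b, were tested, and 6 were called, all towards replicate 1, while the list's share was 1.66% and 1.32%. Its most abundant gene, Mir29a, had 13028 and 10511 CPM. Over all 546 genes tested, 34.2% were called towards replicate 1 and 24.5% towards replicate 2. At 1000 CPM or more 89 of 93 genes were called, so a call alone says little for the abundant genes of a list.

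The cortex label was checked against neuronal and other-organ markers. The neuron list of 9 genes took 6.26% and 3.69% of the counts, with Mir132, induced by neuronal activity, at 40577 and 21189 CPM. Of its 8 tested genes, 6 were called towards replicate 1 and 1 towards replicate 2, beside 34.2% and 24.5% of all genes tested. The 3 Mir124a hairpins were each under 4 CPM, and their mature product is encoded at several loci. The other-organ list of 11 genes took 0.0437% and 0.147%, and 3 of its genes, Mir1a-1, Mir133a-1 and Mir133a-2, had no count. By mean level its most abundant gene was the erythroid Mir451a, at 30.0 CPM in replicate 1 and 821 CPM in replicate 2. In replicate 1 it was Mir375, a miRNA of pancreatic islets and neuroendocrine cells, at 309 CPM, with 466 CPM in replicate 2.

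Each Mir24 hairpin lies opposite a Mir3074 hairpin, the sole other miRNA genes that start within 10 kb of a member. Mir3074-1 (ENSMUSG00000092741.2; chromosome 13, 63301199 to 63301283, - strand) covers all 68 bases of Mir24-1, and Mir3074-2 (ENSMUSG00000105458.1; chromosome 8, 84208825 to 84208907, - strand) overlaps Mir24-2 by 83 bases. The product on that strand is shown because it is largely the reverse complement of miR-24-3p.

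miR-3074-5p: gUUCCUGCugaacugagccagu

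A run of 20 of the 22 bases of miR-24-3p pairs with it, and miR-3074-5p too is listed at both loci. Mir3074-2 had 0 reads on its own strand in both libraries, where a count of 0 allows up to 3 reads. Mir3074-1 had 7 reads in replicate 1 and 50 in replicate 2. Reads over these overlaps are ambiguous in the unstranded column, where both Mir24 hairpins had 0 reads. The other 4 members had the same counts in both columns.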

How the data were processed

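For each library the authors deposited raw read counts per miRNA gene in 3 columns (unstranded, sense and antisense), with mm10 and GENCODE M21 named in the accompanying record. The meaning of the columns was worked out from their totals and the annotation. The sources used here do not give the aligner or counter. Rows that name no gene were left out, and held 67.4% (replicate 1) and 67.6% (replicate 2) of the total. Sense counts were the main measure. Mismatches between the mouse strain and the reference genome were not analysed here.

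CPM, ratios and intervals were computed in Python 3.11.15 with SciPy 1.17.1, and TMM sizes over genes whose counts summed to 10 or more in edgeR 4.0.16. The threshold was an adjusted p of 0.05. The binomial test and the ratio intervals were tested on simulated counts with counting error alone. That simulation held no further spread between libraries and no TMM scaling. The named genes were the 6 members, miRNA genes starting within 10 kb of them, the gene nearest in level to each and the most abundant gene of each list. Members and lists were chosen with earlier results of these data known. Alternatives were the unstranded column, DESeq2 1.42.0 size factors, total counts, other count minimums, denominators, added counts and tests, and leaving out each library. Promoters were not used here.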

Additional observations from a re-analysis of the deposited data

Results flagged for a closer look

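Reads on the strand opposite to Mir24-1 lay above the limit of 3 that a count of 0 allows, with 7 in replicate 1 and 50 in replicate 2. They are the same numbers as the reads of Mir3074-1 on its own strand. Mir3074-1 was 5.44-fold higher in replicate 2 (adjusted p = 8.37e-07, exact binomial test), whereas Mir24-1 was 3.41-fold higher in replicate 1. The other 5 members had 0 reads on the opposite strand in both libraries.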

How the results depend on the processing

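Levels depend on the denominator by construction. With all reads in the table as denominator, mean levels were 2688 CPM for Mir23a, 60.5 for Mir27a, 16.1 for Mir24-2, 6299 for Mir23b, 602 for Mir27b and 16.7 for Mir24-1, and the cluster shares were 0.276% on chromosome 8 and 0.692% on chromosome 13. Without the 10 most abundant genes in the denominator they were 19422 CPM for Mir23a, 435 for Mir27a, 116 for Mir24-2, 45425 for Mir23b, 4329 for Mir27b and 119.9 for Mir24-1, with shares of 1.997% and 4.99%. In the unstranded column Mir24-1 and Mir24-2 had 0 CPM, so neither their ratio nor their log2 ratios between libraries have a value there. Divided by hairpin length, the ratio of Mir27b to Mir27a was 12.04 and that of Mir24-1 to Mir24-2 was 1.5003. These 2 values follow the annotated hairpin lengths, although the RNA was shorter than any of the hairpins. An edgeR exact test at a BCV of 0.1 called 56 genes higher in replicate 2 in place of 134 and 101 higher in replicate 1 in place of 187. Under that test, added for the members after the data were seen, the log2 ratio of 0.50 for Mir23a and that of -0.21 for Mir23b were no longer called (adjusted p = 0.0517 and 0.479). The members' other 32 log2 ratios under an alternative kept their direction and call, TMM over all genes, also added later, included. Some of these could hardly change. Added counts enter the log2 ratio and not the test, so they cannot alter a call. In the unstranded column the Mir23 and Mir27 hairpins have the same counts as in the main one. Leaving out 1 library gives the other library's value, for which the ratio of Mir24-1 to Mir24-2 was 0.632 to 1.27. No test between libraries can be made without one of them. No paired analysis was possible because the libraries form 1 group.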

Other observations

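The seed of miR-27-3p overlaps that of miR-128-3p, a neuronal miRNA, in a register shifted by a base. This product and its genes were chosen after their values were seen.

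miR-128-3p: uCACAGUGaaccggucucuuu

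A run of 8 bases is shared by miR-128-3p and miR-27a-3p. Mir128-1 had 9000.1 CPM in replicate 1 and 3687 CPM in replicate 2, and Mir128-2 had 2052 and 996 CPM. By the exact binomial test both were called towards replicate 1, by 2.49-fold and 2.11-fold, beside 2.29-fold for Mir27a and 2.11-fold for Mir27b. The background of such calls was 34.2% of the genes tested. Each Mir128 hairpin has 1 product that is also found at another locus. Reads that match several places are set aside, so these levels and folds need not be those of miR-128-3p. A link between the shared bases and these folds was not tested.

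Hairpins like the Mir24 pair, with 1 of 2 products listed at another locus and the other not, numbered 57 among the hairpins with 2 RefSeq products that matched a gene of the tables. Their median level was 27.3 CPM, with a range of 0 to 6344 CPM. The 581 hairpins with neither product at another locus had a median of 2.61 CPM, and the 19 with both products at other loci had a median of 0 CPM. These classes hold different genes, and whether a shared product lowers a hairpin's count was not tested.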
